A study of Homo sapiens with 6 samples.

Results

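The 39 genes described here make the proteins that copy DNA in S phase: the origin recognition complex and its helpers, the MCM2-7 helicase and its activators, the DNA polymerases and primase, the sliding clamp and its loader, the enzymes that join Okazaki fragments, the nucleotide suppliers, chromatin assembly and methylation factors of the fork, and cyclin E with E2F1. The rule takes them by symbol and uses no measured value, although the list was chosen with earlier results of these data known. All 39 were found among the 27576 genes of the expression table. RNA was sequenced from Kasumi-1, a human acute myeloid leukaemia line in which t(8;21) joins RUNX1 to RUNX1T1. IL-10 cells had received 10 ng/ml of recombinant human interleukin-10, a cytokine that signals through STAT3, for 72 h. Control cells had received 0.5% bovine serum albumin for the same time, and both groups grew in RPMI1640 with 20% fetal bovine serum. Each group had 3 libraries from 1 cell line. Whether the replicates came from separate cultures is not stated in the labels, and the p-values therefore reflect the spread of these libraries, which may be technical.

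A chromosome is licensed for copying in G1, when the origin recognition complex, CDC6 and CDT1 load rings of MCM2-7 onto DNA. At the start of S phase, CDC45 and the GINS proteins join each ring and make it an active helicase. Polymerase alpha with primase begins each strand, and polymerases epsilon and delta extend it on the PCNA clamp. Transcription of many of these genes climbs before S phase, when E2F proteins are freed from the retinoblastoma protein, so their RNA is widely used as a sign of proliferating cells. In bulk RNA such as this, fewer cells in S phase and less RNA per cell cannot be told apart.

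Because E2F proteins are the textbook regulators of this group, the RefSeq promoters of the members (GRCh38.p14, 250 bases before and 50 after each start) were searched for 4 words of the E2F site, TTTGGCGC, TTTGCCGC, TTTCGCGC and TTTCCCGC, on both strands. RefSeq promoters were at hand for 35 members, in 45 windows. The tables used here held none for MCM4, MCM5, GINS4 and CCNE2. A word was present in 19 of the 45 windows (42.2%), belonging to 18 genes, against 1164 of all 35116 windows (3.31%). The CCAAT word was in 28 of the 45 (62.2%, against 34.6% of all windows) and the GC box GGGCGG in 34 (75.6%, against 45%). A match describes letters in a window, not a bound site. Only these exact words were searched, so a window without one may still hold an E2F site. For 6 members that recur in the results, 80 bases that hold the word or words nearest the start are shown on the gene's strand, with each E2F word in capitals.
CDT1, chr16:88803709-88803788 (+): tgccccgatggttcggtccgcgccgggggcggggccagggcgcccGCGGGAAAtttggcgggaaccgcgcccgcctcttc
E2F1, chr20:33686386-33686465 (-): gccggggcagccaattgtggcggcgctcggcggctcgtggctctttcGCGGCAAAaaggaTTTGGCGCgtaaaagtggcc
MCM6, chr2:135876486-135876565 (-): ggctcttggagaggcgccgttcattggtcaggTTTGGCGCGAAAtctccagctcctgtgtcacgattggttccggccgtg
MCM7, chr7:100101398-100101477 (-): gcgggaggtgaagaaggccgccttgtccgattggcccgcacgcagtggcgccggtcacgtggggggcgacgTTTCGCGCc
PCNA, chr20:5126638-5126717 (-): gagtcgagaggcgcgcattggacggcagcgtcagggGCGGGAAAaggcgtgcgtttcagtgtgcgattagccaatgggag
TYMS, chr18:657573-657652 (+): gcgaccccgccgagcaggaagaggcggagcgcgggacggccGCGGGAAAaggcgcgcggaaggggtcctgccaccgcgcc

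In the stretches shown, the first base of the word lay at -35 in CDT1, -59 in PCNA, -39 in TYMS and -9 in MCM7, counted from the start. E2F1 carried words at -33 and -20, and MCM6 carried overlapping words of opposite strands at -90 and -86. Farther from the start, the 300-base window of MCM6 held more words, 4 in all, and that of MCM7 held 2 in all. The 17 matched members without a word included RRM1, RRM2, ORC1, ORC2, ORC4, CCNE1, POLD1 and the clamp loader genes RFC2, RFC4 and RFC5.

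Values are the deposited read counts divided by a size factor per library, called normalised reads below, with the 3 IL-10 libraries in replicate order followed by the 3 control libraries in the same order. Between 20750115 and 24222897 reads lay behind each library. IL-10 replicate 2 stood apart from the rest: on the first principal component, with 40.2% of the variance, it sat at 95.3, control replicate 2 at 30.1 and the other 4 libraries between -43.1 and -18.7. Genes that define the line (RUNX1T1, KIT, CD34, MPO, CD33 and SPI1) were all detected, and summed to 132288 to 222471 normalised reads in IL-10 libraries and 131764 to 229342 in control libraries. Transcripts of liver, 8 genes mostly read as SERPINA1, summed to 1327 to 1680 with IL-10 and 1321 to 1542 in control libraries. ALB reached 31.7 in IL-10 replicate 2 and 112 in control replicate 2, and was at 0 in at least 1 other library of each group. Epithelial genes, mostly read as EPCAM, summed to 1629 to 1974 with IL-10 against 1893 to 1932 in control libraries. T and NK cell genes, mostly read as CD3D, summed to 1778 to 2659 with IL-10 against 1645 to 2399 in control libraries. Among the other genes of these 3 lists, the highest values in a control library were 222 for APOB, 209 for TF and 156 for KRT8. In an IL-10 library KRT8 was the highest of them at 87.0, and CD3E reached 65.5. Red cell genes summed to 23.5 to 25.9 with IL-10 against 4.97 to 14.0 in control libraries, and the single fibroblast gene in the table stayed at 4.70 or below. The part of these other transcripts in the results below was not tested.

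No change with IL-10 was detected in any of the 39 replication genes. In limma, no member passed an adjusted p of 0.05 over 21946 genes, where 0% of all genes did, and none reached an unadjusted p under 0.05, where 1.57% of all genes did. Log2 fold changes ran from -0.25 for ORC4 to 0.31 for CDT1 with a median of 0.06, beside 0.02 over all genes tested. Of the members 26 had a positive and 13 a negative log2 fold change, and 52% of all genes tested were positive. All 39 members averaged 100 normalised reads or more. The 10505 genes that did so had a median of 0.05, close to that of the members, and 6240 of them were positive. The members' balance depended on the scaling: 16 were positive with equal library totals and 18 with quantile normalization, and no member passed under either. The smallest member p was 0.192, for TYMS (adjusted p = 0.982 in limma). Count tests on recovered reads called 0 genes as well, with 0.531% of 15075 genes under an unadjusted p of 0.05 in edgeR and 0.29% of 27563 in DESeq2, none of them a member. With the replicate number as a block, again 0 genes passed in limma, and no member was among the 2.33% with an unadjusted p under 0.05. The block on pairs 1 and 3 alone gave 11 genes past the threshold (0.0542% of 20308), none of them a member, and TYMS was the single member among the 4.23% with an unadjusted p under 0.05. The 95% interval of a member's log2 fold change had a median half-width of 0.41, from 0.33 to 0.67. A fitted change smaller than its half-width cannot reach an unadjusted p of 0.05. The adjusted threshold asks for more: over all genes tested the smallest unadjusted p was 0.00022 and the smallest adjusted p 0.982 in limma. Changes well above these half-widths could therefore also have been missed.

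**Figure D1:**
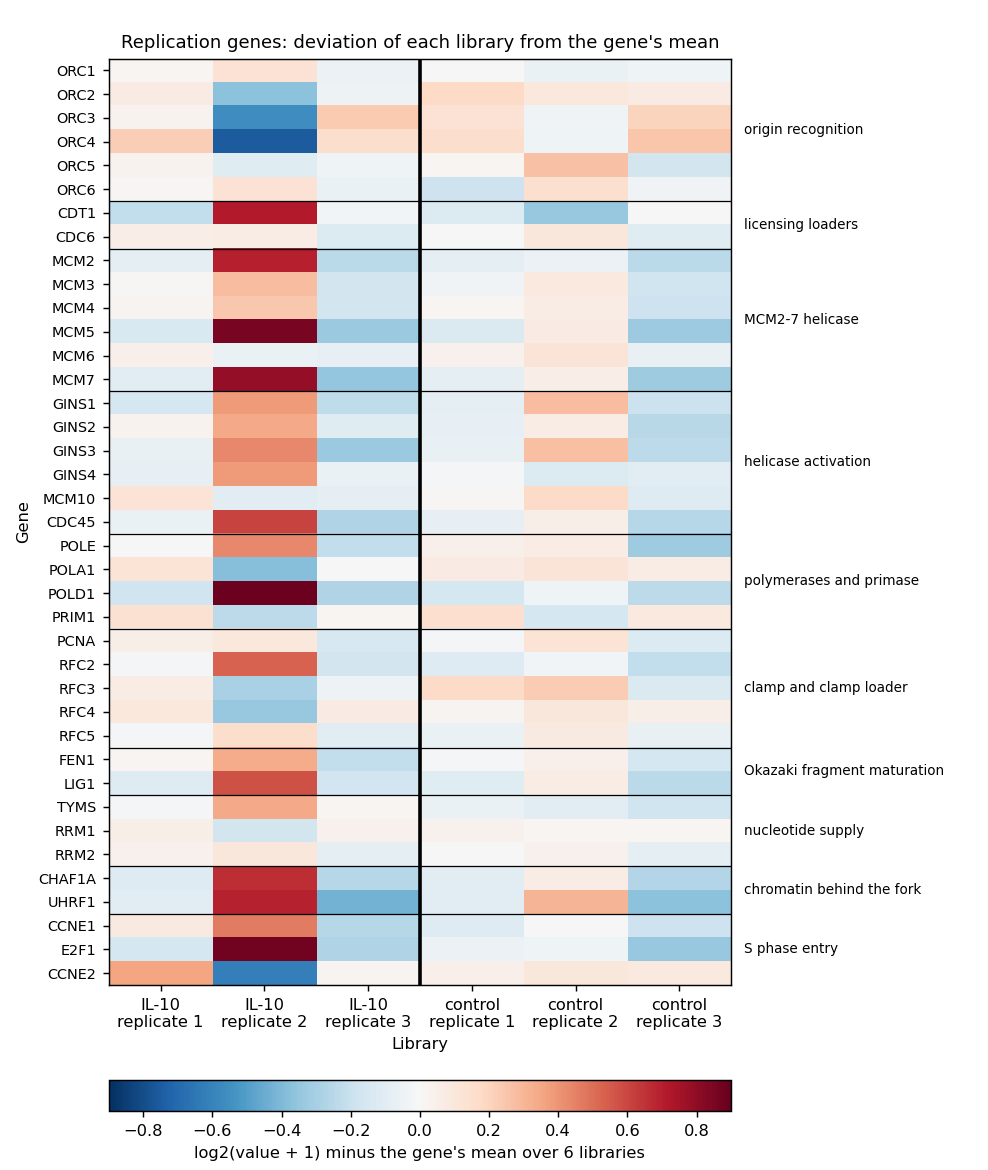
Rows are the 39 replication genes by role, columns the 3 IL-10 and then the 3 control libraries, and colour is log2(value + 1) minus the gene's mean over the 6 libraries. The IL-10 replicate 2 column holds the strongest colours in both directions, with 24 members highest and 9 lowest there. Among the IL-10 libraries alone, replicate 2 was highest for 69.2% of members and 52.0% of all genes averaging 100 or more.

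IL-10 replicate 2 held the extreme value of most members: 24 of the 39 were highest there and 9 were lowest there, as the map of deviations by library shows. The same counts are not given here for all genes, from which this library also stood apart. Within the IL-10 group it was the highest library for 27 members (69.2%), against 52.0% of all genes averaging 100 or more. Without that library the median log2 fold change of the members was -0.04, the range was -0.21 to 0.12 and 13 members were positive, beside 50% of all genes. Across the members, the median residual SD was 0.199 with all 6 libraries and 0.131 without it. Over all genes averaging 100 or more it fell as well, from 0.261 to 0.131. Still no member and no gene passed the threshold, and no member was among the 1.57% of genes with an unadjusted p under 0.05 in limma. That fit kept control replicate 2, the highest control library for 30 members, which lowers their fold changes. With both replicate 2 libraries left out (pairs 1 and 3 only), the members' median was 0.003, beside 0.0005 over all genes. Their range was then -0.11 to 0.12, and 20 members were positive.

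**Figure D2:**
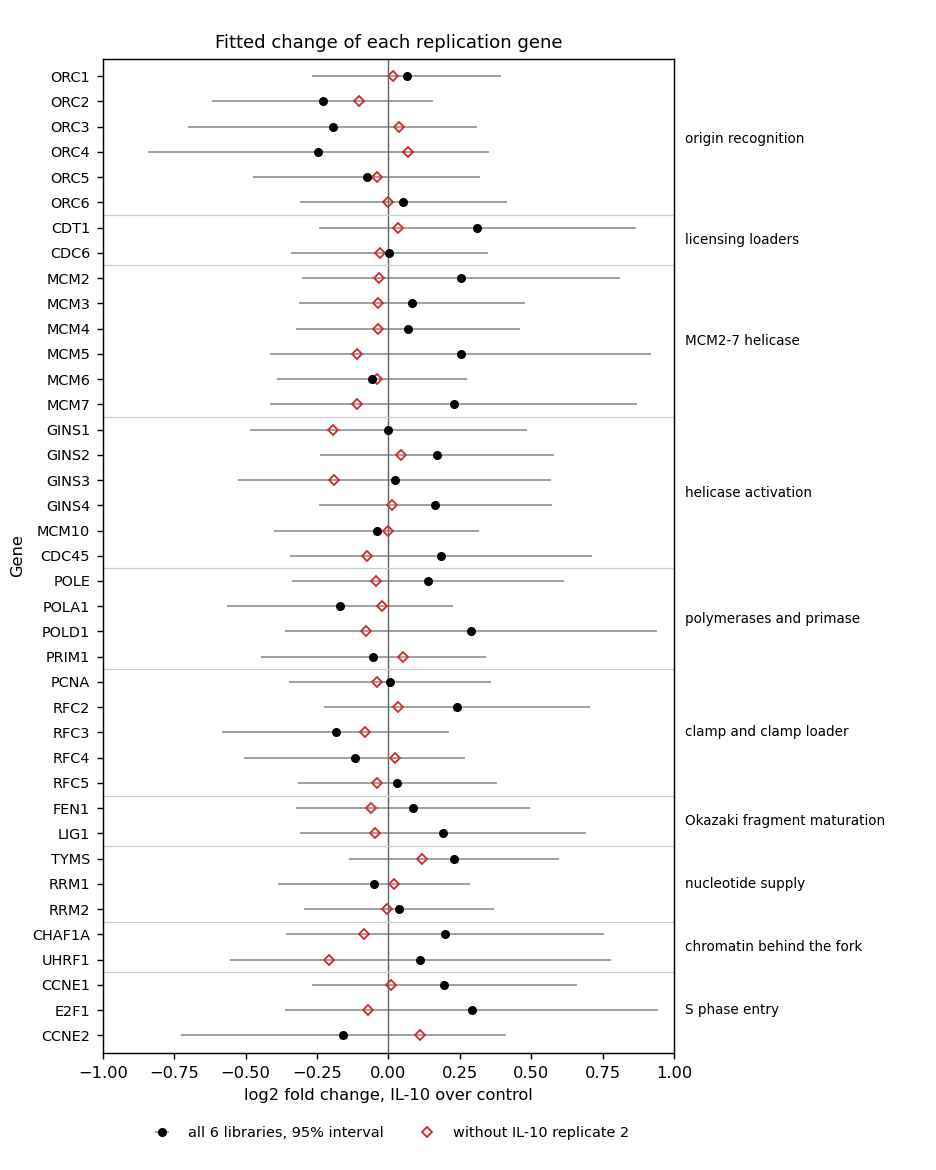
For each gene, the filled point is the log2 fold change of IL-10 over control from all 6 libraries with its 95% interval, and the open diamond is the value without IL-10 replicate 2. Every interval spans 0, and the diamonds lie between -0.21 and 0.12.

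The origin recognition complex marks the sites where copying can begin. ORC4, one of its core subunits (chr2:147930397-148021604, minus strand, GRCh38), had 752, 384 and 723 normalised reads with IL-10, against 721, 629 and 769 in control cells. Its log2 fold change was -0.25 ± 0.26 (SE), and 0.07 without IL-10 replicate 2, the lowest library. ORC3 was likewise lowest in replicate 2 of each group, with 620, 411 and 713 in IL-10 cells and 662, 593 and 696 in control cells. ORC2 (chr2:200908973-200963680, minus strand) was read at 974.7, 717 and 898 with IL-10, against 1050, 988 and 977 in control cells, a log2 fold change of -0.23 ± 0.17 (SE). All 3 IL-10 libraries of ORC2 lay below all 3 control libraries, the only member for which this was so; 3.02% of all genes tested showed it. Of the other subunits, ORC1 averaged 1640 ± 105 with IL-10 against 1567 ± 37.3 in control cells, ORC5 516 ± 24.8 with IL-10 against 547 ± 82.4 in control cells and ORC6 1455 ± 100 with IL-10 against 1407 ± 160 in control cells (SD, n = 3 each), differences within the spread of the libraries. ORC1 and ORC6 were the 2 subunits with positive fold changes, and both turned negative with equal library totals.

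CDT1 and CDC6 bring the MCM ring to the origin. CDT1 (chr16:88803213-88809258, plus strand), whose protein is destroyed once S phase begins, had 3252, 6208 and 3722 normalised reads with IL-10, against 3471, 2995 and 3779 in control cells. Its fold change was the highest of the members at 0.31 on the log2 scale (95% interval -0.24 to 0.87) and 0.03 without IL-10 replicate 2. That library held more CDT1 reads than any other, and IL-10 replicates 1 and 3 lay among the control libraries. CDC6 averaged 1894 ± 137 in IL-10 cells and 1890 ± 136 in control cells (SD, n = 3 each).

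The MCM2-7 genes encode the ring-shaped helicase itself, and 5 of the 6 had positive log2 fold changes, at a median of 0.16 for the set; MCM3 and MCM4 turned negative with equal library totals and with quantile normalization. MCM7 (chr7:100092728-100101940, minus strand) had 13324, 24762 and 11256 normalised reads with IL-10, against 13558, 14890 and 11442 in control cells. MCM5 had 6363, 12624 and 5535 with IL-10 against 6402, 7359 and 5575 in control cells, and MCM2 had 10856, 18691 and 9733 with IL-10 against 10845, 11076 and 9699 in control cells. In all 3 genes replicate 2 was the highest of its group with and without IL-10, and the groups overlapped. Their log2 fold changes of 0.23 ± 0.28, 0.25 ± 0.29 and 0.25 ± 0.25 (SE) became -0.11, -0.11 and -0.03 without IL-10 replicate 2. MCM3 and MCM4 had log2 fold changes of 0.08 and 0.07. MCM6 was the negative one at -0.06, with 4768, 4425 and 4386 normalised reads with IL-10 against 4728, 4994 and 4405 in control cells. Without IL-10 replicate 2 all 6 were at or below -0.03, and with pairs 1 and 3 only they ran from -0.02 to 0.03.

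Helicase activation needs CDC45, the 4 GINS subunits and MCM10. CDC45 had 2480, 3933 and 2139 normalised reads with IL-10, against 2454, 2685 and 2163 in control cells (log2 fold change 0.18, and -0.07 without IL-10 replicate 2). GINS2 (chr16:85676198-85690073, minus strand) had 1011, 1253 and 917 with IL-10 against 944, 1040 and 832 in control cells. It was higher with IL-10 in each same-numbered pair, at log2 ratios of 0.10, 0.27 and 0.14, and its fold change was 0.17 ± 0.18 (SE) over all libraries and 0.04 without IL-10 replicate 2. The groups of GINS2 overlapped. MCM2, MCM3, MCM4, RFC2, RRM2 and TYMS were also higher with IL-10 in each pair, and ORC2 and PRIM1 were lower in each. For MCM2 the log2 ratios in pairs 1 and 3 were only 0.002 and 0.005. The share of all genes with the same sign in each pair was not counted. GINS1, GINS3, GINS4 and MCM10 had log2 fold changes of 0.00, 0.02, 0.16 and -0.04.

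Among the polymerases, POLD1, the catalytic subunit of the lagging-strand enzyme, had 4157, 8678 and 3902 normalised reads with IL-10, against 4217, 4572 and 3990 in control cells. POLE, the catalytic subunit of the leading-strand enzyme, had 7628, 10364 and 6579 with IL-10 against 7901, 8045 and 6126 in control cells. POLA1, which extends the primer, was lowest in IL-10 replicate 2, with 1658, 1172 and 1531 with IL-10 against 1603, 1656 and 1595 in control cells. Fold changes on the log2 scale were 0.29, 0.14 and -0.17, and -0.08, -0.04 and -0.02 without IL-10 replicate 2. PRIM1, the primase that makes the RNA primer, averaged 1079 ± 141 with IL-10 against 1118 ± 124 in control cells (SD, n = 3 each).

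PCNA (chr20:5114953-5126626, minus strand), the ring that holds polymerases on DNA, was among the least shifted members. It had 5027, 5175 and 4390 normalised reads with IL-10, against 4815, 5271 and 4456 in control cells, a log2 fold change of 0.00 with a 95% interval of -0.35 to 0.36. Of the loader subunits that open the ring, RFC2 had a fold change of 0.24, RFC5 of 0.03, RFC4 of -0.12 and RFC3 of -0.18 on the log2 scale, with standard errors of 0.15 to 0.21. RFC3 had 1445, 1126 and 1337 with IL-10 against 1560, 1620 and 1265 in control cells, and its groups overlapped. FEN1, which trims the flap of an Okazaki fragment, averaged 3894 ± 759 with IL-10 against 3630 ± 260 in control cells, and LIG1, which seals the nick, 2486 ± 761 with IL-10 against 2125 ± 233 in control cells (SD, n = 3 each). Both were highest in IL-10 replicate 2.

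TYMS, which makes thymidylate (chr18:657604-673578, plus strand), had 1497, 1917 and 1537 normalised reads with IL-10, against 1452, 1410 and 1337 in control cells. All 3 IL-10 libraries lay above all 3 control libraries, the only member for which this was so; 2.85% of all genes tested showed it. The log2 fold change was 0.23 ± 0.16 (SE), 0.12 without IL-10 replicate 2 and 0.20 after correction for GC content and length, with an adjusted p of 0.982 in limma. In GENCODE 29 the exons of TYMS share 39.1% of their bases with ENOSF1 on the opposite strand, and whether counting used strand is not given in the sources used here, so reads of the 2 genes may not be told apart. ENOSF1 had 3384, 3166 and 3295 normalised reads with IL-10 against 3481, 3288 and 3401 in control cells. RRM1 and RRM2, the subunits of ribonucleotide reductase, averaged 4043 ± 337 with IL-10 against 4177 ± 32.2 in control cells and 5168 ± 330 with IL-10 against 5033 ± 213 in control cells (SD, n = 3 each), differences within the spread of IL-10 libraries.

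Behind the fork, CHAF1A places new histones and UHRF1 brings the maintenance methyltransferase to half-methylated sites. UHRF1 (chr19:4903080-4962154, plus strand) had 6036, 10440 and 4814 normalised reads with IL-10, against 6012, 8002 and 5007 in control cells. In both groups it was highest in replicate 2 and lowest in replicate 3, and its log2 fold change was 0.11 (95% interval -0.56 to 0.78). CHAF1A had 3902, 6707 and 3548 with IL-10 against 3947, 4430 and 3525 in control cells. Of the genes of S phase entry, E2F1 (chr20:33675683-33686404, minus strand) had 1824, 3718 and 1686 with IL-10 against 1960, 1979 and 1609 in control cells, a log2 fold change of 0.29 that became -0.07 without IL-10 replicate 2. CCNE1, the major cyclin E, had 1087, 1422 and 861 with IL-10 against 950, 1032 and 903 in control cells. CCNE2 had 345, 176 and 274 with IL-10 against 279, 290 and 287 in control cells, so its IL-10 libraries included both its highest and its lowest value. The exons of CCNE2 share 37.0% of their bases with INTS8 on the opposite strand, and its reads carry the same uncertainty. In all, 18 members share exon bases with another gene, 16 of them with one on the opposite strand.

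Set side by side by replicate number, the 3 pairs of libraries were unlike each other. In pair 1 the members had a median log2 ratio of 0.01 (-0.11 to 0.31) and in pair 3 of -0.01 (-0.12 to 0.20), and no member reached 1.5-fold in either, where 0.114% and 0.0571% did among the 10505 genes averaging 100 normalised reads or more. Pair 2 had a median of 0.17 and a range of -0.72 for CCNE2 to 1.05 for CDT1. In pair 2, 7 members were at least 1.5-fold higher and 2 at least 1.5-fold lower with IL-10, beside 22.4% and 13.3% of genes. An exact binomial interval on the reads, which covers counting error only, lay above 0 for 5 members and below 0 for 4 in pair 1, where 18.8% of genes left out 0. The counts were 22 and 11 in pair 2 (80.3% of genes) and 3 and 1 in pair 3 (15.6% of genes). With 1 library a side, none of these ratios has a replicate check.

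The members' ratios in pair 2 followed the base composition of their transcripts. Sorted by GC content, the 13 richest members (52.9% to 64.9%) had a median log2 ratio of 0.60 in pair 2 and the 13 poorest (36.9% to 45.3%) of -0.37. The middle 13 had 0.17. In the fit over all libraries 13 of the 13 richest members had a positive fold change, as did 11 of the middle 13 and 2 of the 13 poorest. The same split of all genes was not counted. Over all genes averaging 100 or more, the median pair 2 ratio ran from -0.72 in the poorest GC bin to 0.83 in the richest. Across the 39 members, GC content and the pair 2 ratio had a Pearson correlation of 0.909 and a Spearman correlation of 0.918, against -0.22 and 0.15 (Pearson) in pairs 1 and 3. Points share both libraries of a pair, and genes are not replicates. Over 10485 genes averaging 100 or more the Pearson correlation was 0.840. With GC content and length corrected in each library, the Pearson correlation in pair 2 was 0.274 for the members and 0.171 over the 10485 genes. A fall is built into this correction, which removes each library's fitted trend with GC content. In the fit on corrected values, the members' log2 fold changes spanned -0.08 to 0.20 with a median of 0.05. In that fit, too, no member passed the threshold or reached an unadjusted p under 0.05 in limma, beside 0% and 1.61% of 21663 genes. With the replicate block added to this correction 0% of genes passed, and TYMS was the single member among the 4% with an unadjusted p under 0.05, at 0.0338 (adjusted p of 0.892 or more for every member in limma).

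**Figure D3:**
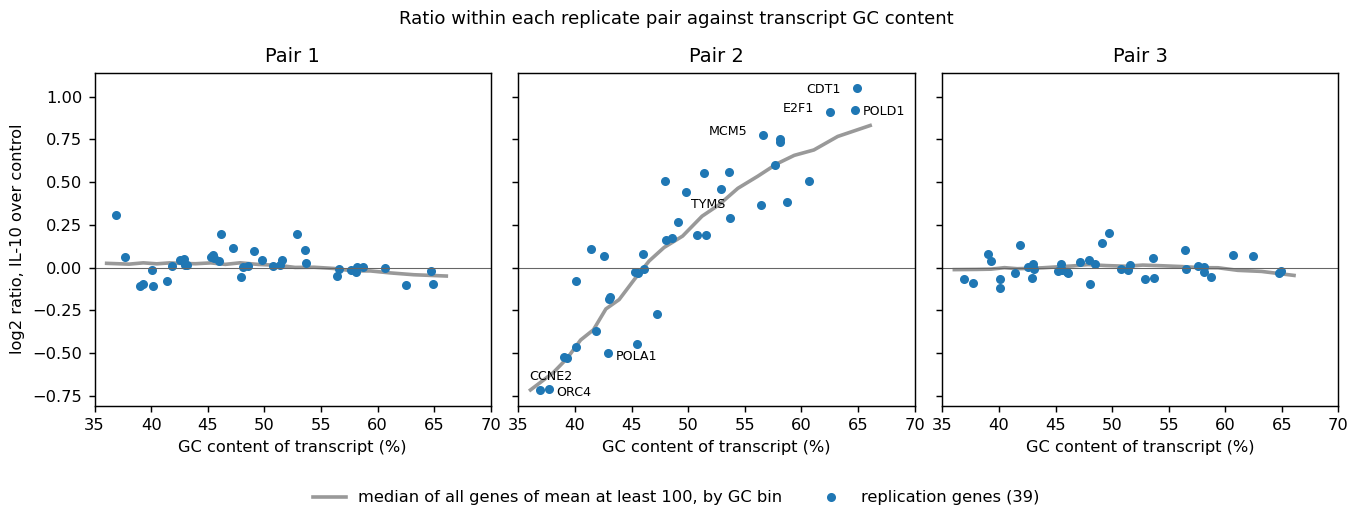
Each panel plots the log2 ratio of IL-10 over control in 1 replicate pair against the GC content of the gene's transcript in percent, for the 39 members (points) and the median of all genes averaging 100 or more in bins of GC content (line). In pair 2 the members climb with the line, with CCNE2 at -0.72 and CDT1 at 1.05, and in pairs 1 and 3 they lie along 0.

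Members from both ends of this range show how far composition differed. The opening 90 coding bases of the GENCODE 29 transcripts of CDT1 and E2F1, both high in IL-10 replicate 2, and of ORC4 and ORC2, both low there, are shown with G and C in capitals.
CDT1, chromosome 16 (+): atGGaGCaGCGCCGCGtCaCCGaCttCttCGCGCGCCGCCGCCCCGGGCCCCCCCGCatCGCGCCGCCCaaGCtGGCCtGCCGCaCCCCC
E2F1, chromosome 20 (-): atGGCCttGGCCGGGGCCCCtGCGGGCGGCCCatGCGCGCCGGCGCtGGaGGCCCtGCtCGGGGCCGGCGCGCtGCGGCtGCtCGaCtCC
ORC4, chromosome 2 (-): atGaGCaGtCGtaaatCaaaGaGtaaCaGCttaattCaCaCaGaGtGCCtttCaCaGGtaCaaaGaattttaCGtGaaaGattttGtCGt
ORC2, chromosome 2 (-): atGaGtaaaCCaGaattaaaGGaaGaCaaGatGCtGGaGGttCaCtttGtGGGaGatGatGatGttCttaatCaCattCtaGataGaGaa

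G and C made up 80% of the stretch in CDT1 and 82.2% in E2F1, and 36.7% in both ORC4 and ORC2. Over the whole transcript the shares were 64.9%, 62.5%, 37.7% and 40.1%. The opening stretch does not stand for the transcript in every member: it was 45.6% in MCM7, whose transcript was 58.1%, and 71.1% in MCM6, whose transcript was 43.1%. Grouped by the E2F word of the promoter, the 18 members with a word had a median log2 fold change of 0.10 and the 17 without one 0.04. Their pair 2 medians were 0.23 and 0.06, and their median transcript GC contents 49.4% and 46.1%. In pairs 1 and 3 the medians with a word were 0.001 and -0.001, and without one 0.03 and -0.02.

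Replicates of one treatment differed more than the treatments did within pairs 1 and 3. The median absolute log2 difference over the members was 0.044 between IL-10 replicate 1 and control replicate 1 and 0.033 between IL-10 replicate 3 and control replicate 3. It was 0.137 between IL-10 replicates 1 and 3 and 0.119 between control replicates 1 and 3. The members ran higher in replicate 1 than in replicate 3 in both groups, by a median log2 difference of 0.12 with IL-10 and 0.11 in control cells, and 31 of the 39 (79.5%) did so in both. Over all genes averaging 100 or more the medians were 0.04 and 0.02, and 44.8% of genes did so in both. UHRF1, POLE, MCM7 and GINS3 were among those with the larger steps in both groups, while CDT1 and ORC3 were lower in replicate 1 in both groups. Control replicate 2 was the highest control library for 30 members (76.9%, against 46.4% of genes) and control replicate 3 the lowest for 30 (76.9%, against 43.6%). The members' share of all reads was 0.586%, 0.669% and 0.541% in IL-10 replicates 1 to 3, against 0.591%, 0.620% and 0.541% in control replicates 1 to 3, and so had the same order in both groups.

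**Figure D4:**
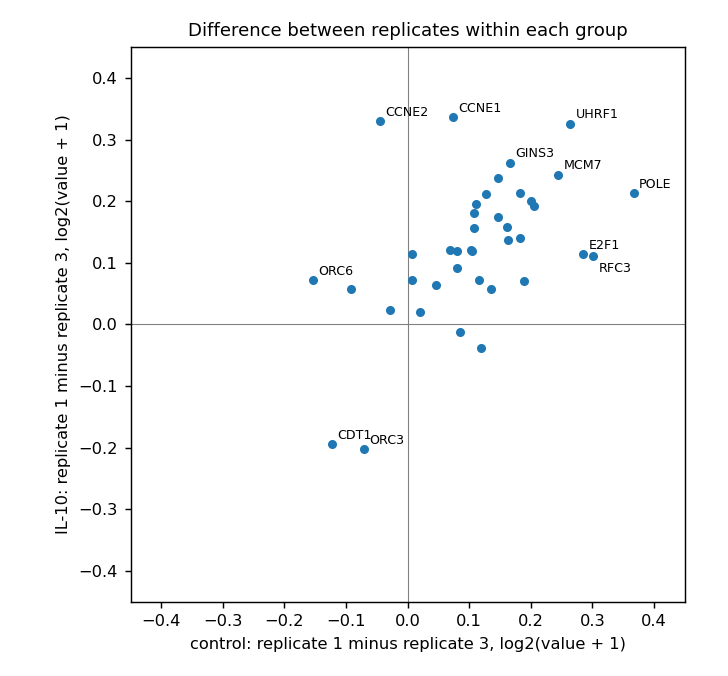
Each point is 1 of the 39 members, plotted by its difference between replicates 1 and 3 in control cells (horizontal axis) and in IL-10 cells (vertical axis), both on the log2(value + 1) scale. Of the 39 points, 31 lie at the upper right, higher in replicate 1 in both groups, and CDT1 and ORC3 lie in the lower left.

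Within a complex, levels were compared as normalised reads per kb of the principal transcript. Among MCM genes the order was MCM7, MCM2, MCM3, MCM4, MCM5 and MCM6 in 5 libraries, with 3.24 to 3.77 times as much of MCM7 as of MCM6. In IL-10 replicate 2 MCM5 stood ahead of MCM3 and the ratio was 7.07. MCM7 averaged 5562 ± 2460 per kb with IL-10 and 4497 ± 588 in control cells, the highest member per kb in control cells, and MCM6 1212 ± 56.2 and 1260 ± 79.0 (SD, n = 3 each). In control cells the neighbours MCM2 (2910 ± 204) and MCM3 (2768 ± 254) lay within their spread. The other neighbours were farther apart than the SD of either gene, with MCM4 at 2361 ± 219 and MCM5 at 1824 ± 253 per kb. ORC6 was the highest and ORC4 the lowest origin recognition gene in all 6 libraries, at 894 ± 61.5 and 92.4 ± 30.5 per kb with IL-10 and 864 ± 98.6 and 105 ± 10.5 in control cells. The ratio of ORC6 to ORC4 was 16.8 in IL-10 replicate 2 and 7.16 to 10.3 in the other libraries. GINS1 exceeded GINS2, GINS4 and GINS3, in that order, in every library, and RFC4 was the highest loader subunit in every library. RRM2 ran at 1.03 to 1.34 times RRM1. Cyclin E was mostly CCNE1, at 5.11 to 5.79 times CCNE2 in 5 libraries and 13.1 times in IL-10 replicate 2. Dividing by the union of all exons instead put MCM3 ahead of MCM2, MCM5 last among the MCM genes, ORC1 ahead of ORC6 and RRM1 ahead of RRM2, and reordered the loader subunits below RFC4, so those orders depend on the length used.

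**Figure D5:**
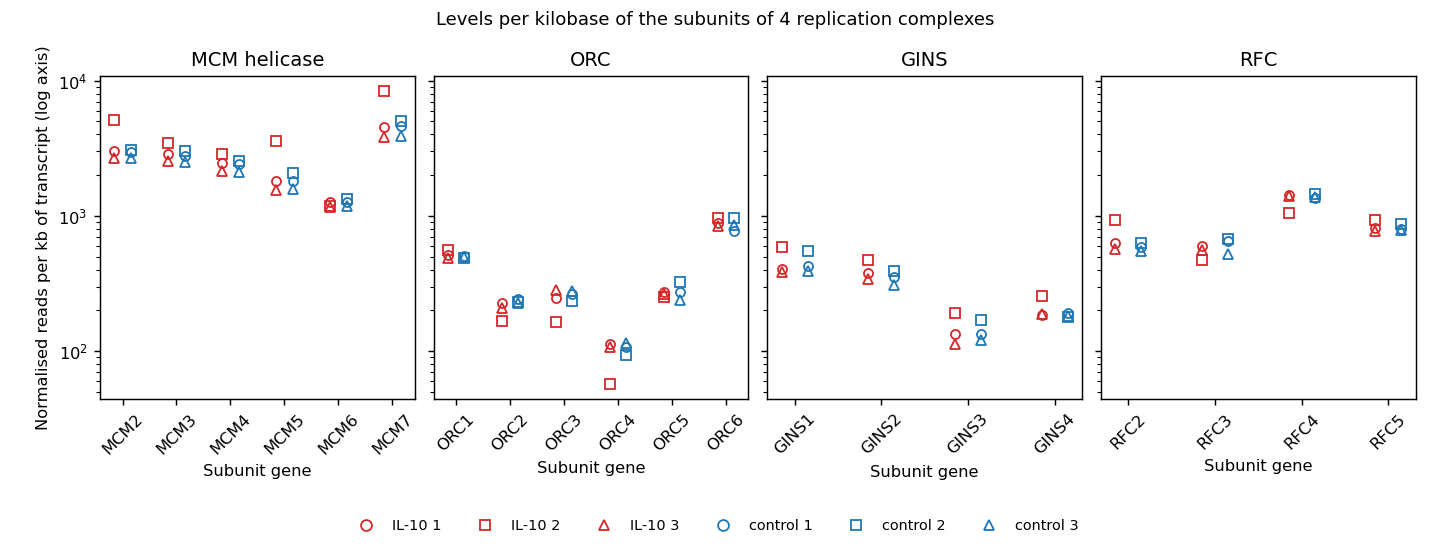
Normalised reads per kb of transcript (log axis) of the subunit genes of 4 complexes, with IL-10 libraries in red left of control libraries in blue and a symbol for each replicate. The squares of IL-10 replicate 2 spread the MCM panel most, from MCM6 to MCM7 at 7.07-fold, and drop lowest at ORC4.

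Other genes of replication gave the same count of calls. Of 70 listed, all 70 were tested and 0 passed, beside 0% of all genes, and none reached an unadjusted p under 0.05. Of these, 37 had positive and 33 negative log2 fold changes, at a median of 0.004. Those of smallest p, 3 per direction, were TK1 (thymidine kinase), E2F2 and RNASEH2C, and CLSPN (claspin, which links a stalled fork to the checkpoint), RBL1 (the p107 pocket protein) and WDHD1. CLSPN had 1136, 878 and 952 normalised reads with IL-10, against 1275, 1485 and 1030 in control cells. It was lower with IL-10 in all 3 pairs, at log2 ratios of -0.17, -0.76 and -0.11, but the groups overlapped and its log2 fold change of -0.35 ± 0.19 (SE) had an unadjusted p of 0.104 and an adjusted p of 0.982 in limma. TK1 had 6525, 11273 and 6046 with IL-10 against 6290, 5843 and 6257 in control cells, a log2 fold change of 0.32, and 0.04 without IL-10 replicate 2. None of the partners of the members passed either. POLE2, POLA2, PRIM2, RFC1 and GMNN, the geminin that holds CDT1 inactive, had log2 fold changes of -0.10, 0.11, -0.11, -0.25 and -0.07.

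The 28 genes of G2 and mitosis had a median log2 fold change of -0.12, with 10 positive and 18 negative, and 0 passed the threshold. Their pair medians were 0.05, -0.45 and -0.01, where those of the replication genes were 0.01, 0.17 and -0.01. Transcripts of the G2 and mitosis genes had a median GC content of 43.2%, and those of the replication genes 48.1%. Without IL-10 replicate 2 the median of the G2 and mitosis genes was -0.003, beside -0.04 for the replication genes. With pairs 1 and 3 only the medians were 0.02 and 0.003. The difference between the 2 sets was not tested.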

How the data were processed

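RNA sequencing of 6 Kasumi-1 libraries, 3 per group, was analysed by treatment label, with replicate numbers from the titles. Per the labels' protocols, RNA came from a Trizol extraction and was prepared with a TruSeq RNA kit. Although the table of 27576 Ensembl genes is called FPKM, the unit the authors deposited is a signal, namely counts of reads over a size factor for each library (0.851 to 1.12). The values themselves show this: within 0.01 read, 100% of them in each library were whole multiples of that library's step. The build GRCh38 (hg38) and the tool edgeR 3.18.1 appear in the submitters' processing notes without a role. The sources used here do not give the aligner, counter, annotation or use of strand.

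Of the identifiers, 26883 had a name in the table of gene names and 27052 were in GENCODE 29 (GRCh38), which gave positions, principal transcripts, lengths and GC content. The main test was limma 3.58.1, with R 4.3.3 and a mean-variance trend, on log2(value + 1). It was two-sided and took genes at 1 or above in 3 or more libraries, adjusted by Benjamini-Hochberg over all genes tested, with 0.05 as the threshold. Fold changes on this scale understate those of low genes. Count tests on recovered reads used edgeR 4.0.16 (quasi-likelihood) and DESeq2 1.42.0. The step of control replicate 2, 0.994, lies close to 1, so edgeR was also run without that library. Scripts were tested on simulated data. Fits with GC content and length corrected used loess per library.

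Same-numbered libraries deviated together from their group means, with correlations of 0.367, 0.605 and 0.726 over 11605 genes with a mean of at least 50, so same numbers were treated as pairs in an alternative fit that blocks on the number. The evidence for pairing is in the values; the labels share a number and say nothing more. The members and all gene lists were chosen with earlier results of these data known. All members may be named, as may the 3 other replication genes of smallest p in each direction and 5 partners of the members. Counting intervals are exact, at 95%, and cover counting error only. PCR copies are not independent molecules.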

Additional observations from a re-analysis of the deposited data

How the results depend on the processing

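Under 24 alternatives (22 planned, and 2 chosen after seeing the data: pairs 1 and 3 only, and edgeR without control replicate 2), no replication gene passed the threshold. Over all genes the count was 0 except for pairs 1 and 3 fitted with the replicate block, where 11 genes passed (0.0542% of 20308, 10 higher and 1 lower), none of them a member, and 4.23% had an unadjusted p under 0.05. There TYMS had an unadjusted p of 0.0312 and an adjusted p of 0.999 in limma. With the replicate block and all 6 libraries, 0 genes passed, 2.33% had an unadjusted p under 0.05, and the smallest adjusted p of a member was 0.851; with GC and length corrected as well, 0 genes passed and TYMS had an unadjusted p of 0.0338. The pairing changed no other call. The members' median log2 fold change lay between -0.04 and 0.17 over all alternatives, and leaving out 1 library gave the same range, with the low end without IL-10 replicate 2 and the high end without IL-10 replicate 3. Equal library totals gave -0.04, beside -0.08 for all genes. In 6 members (TYMS, GINS2, CCNE1, RFC2, RFC3 and ORC2) the sign held in every alternative; 33 turned in at least 1. The smallest adjusted p of a member was 0.589, for CCNE2 with sample weights. All members averaged 100 normalised reads or more, and the 3 libraries per group leave 95% intervals of 0.33 to 0.67 either side of a fold change. Exon overlaps, and lengths taken from 1 transcript per gene, limit levels per kb.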

Other observations

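Retrocopies of replication genes are common in the human genome, and 6 members (PCNA, RRM2, TYMS, RFC3, RFC5 and FEN1) have 11 named pseudogenes in GENCODE 29. Of these, 3 were listed in the table, and the highest value of any was 19.2 normalised reads, for RRM2P3. How the counting treated reads that match a gene and its copy is not given in the sources used here.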
